A study of Mus musculus
Mus spretus with 18 samples.

Results

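The 10 genes described here encode heterogeneous nuclear ribonucleoproteins (hnRNPs): Hnrnpa1, Hnrnpa2b1, Hnrnpa3, Hnrnpab, Hnrnpc, Hnrnpd, Hnrnph1, Hnrnph3, Hnrnpk and Hnrnpr. They were chosen by name and not by a measured value, although earlier results of these data were known. Each was found by its symbol in the expression table (10 of 38924 genes) and in the splicing tables. There they held 126 of 121350 skipped exon (SE) events, which concern 82 of 83492 exons, and 5 of 2158 retained intron (RI) events in fibroblasts.

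The hnRNPs are abundant nuclear proteins that coat nascent transcripts, influence which splice sites are used and accompany the mRNA through export, localisation, translation and decay. Many of them act against SR proteins, so that the balance of both groups sets how often an exon is included. Several hnRNP genes also limit their own level through splice forms that are retained in the nucleus or removed by nonsense-mediated decay.

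RNA-seq libraries were made from F1 hybrids of 2 inbred mouse strains, the standard laboratory strain C57BL/6J and SPRET/EiJ of the species Mus spretus, so that every cell carried both alleles of each gene. Cerebral cortex, heart, kidney, lung, spleen and liver came from female F1 mice aged 8 weeks, with 2 libraries per organ. The mother was C57BL/6J and the father SPRET/EiJ. The study took cortex, heart, kidney, lung and spleen from 2 animals, so libraries of different organs share animals. The main tests among tissues treated these libraries as independent. Embryonic stem cells (ESC) were represented by 2 independent F1 clones, and an F1 fibroblast line was treated for 4 hours with pladienolide B (PladB) at 0.1 μM or with DMSO, with 2 libraries each. The liver libraries were made for an earlier study of the same animals, and their labels name the strains C57BL/7J and C57BL/8J in place of C57BL/6J. The study sequenced cortex, heart and kidney with longer reads than lung, spleen and ESC, and trimmed them to the same length before alignment. Differences between these sets of tissues cannot be told apart from this difference in sequencing. Nothing states that the fibroblast libraries came from separate cultures, so their p-values measure only the spread between these libraries.

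Each library held between 45055286 and 128494506 junction reads in the tissues and between 121091735 and 144154268 in the fibroblasts, and a single allele received between 10129390 and 46565133 in the tissues. In every tissue the summed TPM (a gene's read count per length, scaled to a fixed total per library) of that tissue's markers was highest in its own libraries. Liver markers also summed to between 1223 and 1423 in cortex, of which Ttr alone made 1422 and 1223. Alb, Apoa1 and Cyp3a11 were each at 0.71 TPM or below there. Heart markers summed to between 851 and 1067 in lung, and blood markers to 495 and 1493 in the 2 spleen libraries. Their part in the results was not tested. The libraries are of bulk tissue, so fewer cells that express a gene and less RNA per cell cannot be told apart.

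Among the A/B proteins, which bind short purine-rich motifs through paired RNA recognition motifs, Hnrnpa1 (chr15:103239943-103246698, GRCm38) encodes a repressor of exon inclusion that shuttles between nucleus and cytoplasm. Hnrnpa2b1 (chr6:51460434-51470048) encodes a relative that also takes part in mRNA transport, and Hnrnpa3 (chr2:75659105-75669407) a further close relative. Hnrnpab (chr11:51600100-51606881) and Hnrnpd (chr5:99955935-99979130) are related to each other, and the latter encodes AUF1, which binds AU-rich elements and affects mRNA decay. Hnrnpc (chr14:52073377-52104039) encodes a core protein that binds uridine tracts. Hnrnph1 (chr11:50375257-50386528) and Hnrnph3 (chr10:63014664-63023980) encode proteins that bind runs of guanines. Hnrnpk (chr13:58391132-58403343) encodes a KH domain protein that binds cytosine-rich sequence, and Hnrnpr (chr4:136310942-136345981) encodes a relative of Syncrip with a part in axonal mRNA.

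To see in which tissues these genes were used most, their TPM were compared across the 7 tissues. All 10 genes differed among tissues, as did 99.4% of all 21925 genes tested, so that the difference itself was no distinction. Their levels were highest in ESC or spleen for 9 of the 10 genes, and lowest in liver for 9. Summed over the 10 genes, the TPM lay between 3134 and 4062 in ESC, between 2568 and 2627 in spleen, between 1589 and 1613 in cortex and between 1459 and 1509 in lung. The sums were lower in kidney, with 1091 and 1096, in heart, with 879 and 886, and in liver, with 570.0 and 631. The groups did not overlap in this sum.

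**Figure D1:**
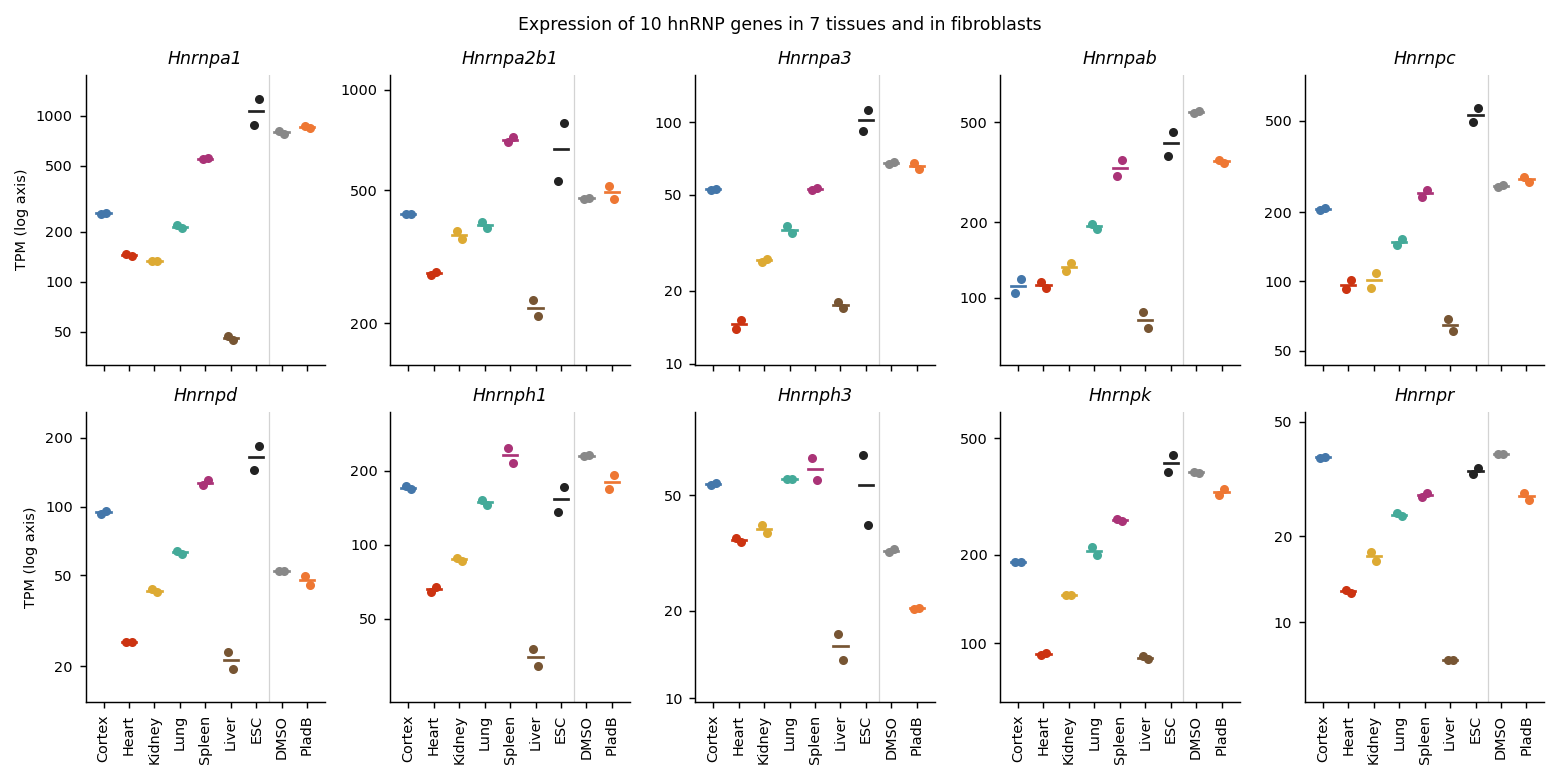
Expression in TPM on a log axis for each of the 10 genes, with 1 point per library and a bar at the mean of the 2 libraries. Tissues stand left of the grey line and fibroblasts with DMSO or PladB to its right. For Hnrnpa1 the ESC libraries lie at 882 and 1267 and the liver libraries at 47.3 and 44.4.

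Hnrnpa1 spanned the widest range among the 10 genes. It was expressed at 882 and 1267 TPM in the 2 ESC clones, at 549 and 554 in spleen, at 255 and 261 in cortex and at 219 and 210 in lung. The levels were 147 and 143 TPM in heart, 134 and 133 in kidney, and 47.3 and 44.4 in liver. Thus every step of this order was larger than the spread between libraries, and the range amounted to 4.50 on the log2(TPM + 1) scale, or 22.6-fold (limma F test, adjusted p = 7.14e-09).

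The other A/B genes spanned smaller ranges. Hnrnpa3 ranged 6.61-fold, from 91.8 and 112 TPM in ESC to 13.9 and 15.2 in heart, and was the only member whose lowest tissue was not liver. Hnrnpa2b1, which had the highest TPM of all members in cortex, heart, kidney, lung, spleen and liver, ranged 3.18-fold, the narrowest of the 10. Its TPM was 696 and 723 in spleen, 532 and 793 in ESC, and 235 and 211 in liver. The spleen and ESC libraries overlapped for this gene.

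Hnrnpab and Hnrnpd, although related, differed in cortex. Hnrnpab was expressed at 105 and 119 TPM in cortex, 0.67 log2 below the mean of the other tissues (SE 0.095, limma adjusted p = 0.000112), and its cortex and heart libraries overlapped. Hnrnpd stood at 93.2 and 95.1 TPM in cortex, 0.73 log2 above the mean of the other tissues (SE 0.088, adjusted p = 3.27e-05). Elsewhere both followed the common order, with 368 and 455 TPM of Hnrnpab in ESC against 87.6 and 76.1 in liver, and 144 and 185 TPM of Hnrnpd in ESC against 23.2 and 19.5 in liver.

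Hnrnpc ranged 8.08-fold, from 495 and 567 TPM in ESC to 68.7 and 60.9 in liver, and its kidney and heart libraries overlapped. Hnrnpk ranged 4.56-fold, from 383 and 439 TPM in ESC to 90.2 and 87.9 in liver, next to 91.3 and 92.6 in heart. Both genes were therefore highest in the ESC clones.

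The remaining genes did not peak in ESC. Hnrnph1 was highest in spleen, with 247 and 215 TPM, and lowest in liver, with 37.7 and 32.1, while its cortex, ESC and lung libraries could not be ordered beyond their spread. Hnrnph3 was expressed at 67.4 and 56.4 TPM in spleen and at 16.6 and 13.6 in liver, and its ESC clones stood apart from each other with 69.2 and 39.6. Hnrnpr was highest in cortex, with 37.3 and 37.8 TPM, followed by ESC with 32.8 and 34.6 and liver last with 7.39 and 7.37. Relative to the mean of the other tissues, Hnrnpr was 1.00 log2 higher in cortex (SE 0.052, limma adjusted p = 5.33e-08), the largest cortex difference among the members.

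Set against the mean of the other 6 tissues, all 10 genes were higher in ESC (46.1% of all genes were called higher there) and all 10 in spleen (41.6%), and all 10 were lower in liver (81.4%). In heart 9 were lower (64%) and in kidney 8 (42.8%). In cortex 6 were higher (48.2%) and 1, Hnrnpab, was lower (33.3%), and in lung 5 were higher (38.4%). The median of the 10 differences was 1.47 log2 in ESC and 0.82 in spleen, against 0.14 and 0.03 over all genes, and it was -1.53 in liver against -1.04. These contrasts share libraries and were not compared with each other. Hnrnpa1, Hnrnpa3 and Hnrnpc have processed pseudogenes of near-identical sequence, so the assignment of their reads is uncertain, for exons as well as for genes.

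The TPM of a gene depends on what the other genes take up. The 10 most abundant genes of a library took between 8.01 and 8.62% of all TPM in ESC and between 11.3 and 14.9% in spleen, but between 22.6 and 28.1% in heart, kidney, lung and liver. With each library centred on its median gene, all 10 genes were higher in spleen (32.5% of all genes were called higher there) and 8 in ESC (37.3%). After centring 8 were lower in kidney (44.5% of all genes), 6 in heart (37.4%) and 6 in liver (38.7%). In cortex the split became 3 higher (36%) and 3 lower (47.9%). In lung 4 were lower (47.6%) and none was higher by limma (28.1%), where Hnrnpa3, Hnrnpab, Hnrnpd, Hnrnpk and Hnrnpr changed sign. In cortex Hnrnpa1, Hnrnpa2b1 and Hnrnpk changed sign, and in heart Hnrnph3, none of them called in both directions. The lung count also moved to 9 higher without the 2 ESC libraries, and to 0 higher and 3 lower without the 2 liver libraries. For these fits the shares of all genes called were not determined.

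Markers of dividing cells were also highest in ESC, followed by spleen. The summed TPM of Mki67, Top2a, Pcna, Mcm5 and Ccnb1 lay between 655 and 1099 in ESC, between 248 and 481 in spleen, and between 17.4 and 63.8 in the other tissues. Unlike the markers, Hnrnpr was highest in cortex, and Hnrnpa2b1, Hnrnph1 and Hnrnph3 had their highest mean in spleen. In the ESC clone with the higher marker sum 9 of the 10 genes were higher, and Hnrnph3 was lower, but the share of all genes higher there was not determined. The summed TPM of the 10 genes was higher in cortex than in lung, while the marker sum was higher in lung. None of the 5 markers was at 0 in any library, and their part in the result was not tested.

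The profiles of the 10 genes over the 7 tissue means resembled each other, with a Pearson's r between 0.661 and 0.972 over the 45 pairs and a median of 0.891. Given as a description over 7 points that share libraries, the gene outside the family whose profile was most like the mean of the 10 was Bub3 (r = 0.997), a mitotic checkpoint gene, among 4092 genes with at least 10 TPM in every tissue. Next came Rbm10 (r = 0.995), a splicing regulator, Thoc5 (r = 0.995), of the THO complex of mRNA export, Zfp330 (r = 0.993) and Gm16286 (r = 0.992).

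Of 22 other hnRNP and partner genes, all 22 were lower in liver (81.4% of all genes). In ESC 19 were higher (46.1%) and 1 was lower (38.3%), and in spleen 17 were higher (41.6%) and 3 lower (38.0%). The extremes in ESC were Tnpo1, the import receptor of A/B proteins, with a difference of 2.55 log2, and the poly(C)-binding gene Pcbp4 with -1.26. In cortex they were Pcbp3 with 2.89 and Hnrnpf, a close relative of Hnrnph1, with -1.77. Thus this wider group held members with directions opposite to the bulk of the family in both tissues.

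PladB binds the SF3B complex of the U2 snRNP, which recognises the branch point, and it was used in the study to perturb the splicing machinery of the fibroblasts. As deposited, the TPM of the median gene fell by 0.98 on the log2(TPM + 1) scale with PladB, and 73.5% of 13577 genes tested were called lower and 15.8% higher. Among the 10 genes 5 were called lower and 1 higher, and the median of their differences was -0.17. Relative to the median gene, with each library centred, all 10 were called higher, by 0.35 to 1.11 log2, as were 44.4% of all genes, while 43.2% were called lower. Thus the direction of the 7 genes with a negative difference depends on the scaling.

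The members that fell most as deposited were Hnrnpab and Hnrnph3. Hnrnpab was expressed at 544 and 552 TPM with DMSO and at 353 and 345 with PladB, a difference of -0.65 log2 (SE 0.033, limma adjusted p = 2.19e-05) that turned to 0.35 after centring. Hnrnph3 went from 32.0 and 32.6 TPM to 20.3 and 20.5, a difference of -0.64 (SE 0.043, adjusted p = 6.08e-05) that turned to 0.36. The libraries with and without PladB did not overlap in either gene.

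Hnrnpr followed with 38.6 and 38.6 TPM against 28.3 and 26.7, a difference of -0.48 (SE 0.048, limma adjusted p = 0.000339; 0.52 after centring). Hnrnph1 stood at 229 and 231 TPM with DMSO and at 168 and 192 with PladB, a difference of -0.35 (SE 0.068, adjusted p = 0.00479; 0.64 after centring). Hnrnpk stood at 384 and 382 TPM against 321 and 336, a difference of -0.22 (SE 0.037, adjusted p = 0.00279; 0.78 after centring). In all 3 genes every PladB library lay below both DMSO libraries as deposited.

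Hnrnpa1 was the member called higher as deposited, with 807 and 782 TPM against 872 and 840, a difference of 0.11 (SE 0.037, limma adjusted p = 0.0414). This call was lost without the filter on low TPM (adjusted p = 0.18) and without PladB library 1 or either DMSO library, with adjusted p between 0.0572 and 0.169. Hnrnpa2b1, Hnrnpa3, Hnrnpc and Hnrnpd differed by 0.06, -0.05, 0.09 and -0.13 log2 as deposited and did not pass the test, with adjusted p between 0.0682 and 0.357, and by 1.06, 0.95, 1.09 and 0.87 after centring.

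In the same comparison the summed markers of dividing cells lay between 554 and 575 TPM with DMSO and between 280 and 297 with PladB. The log2 ratio of the mean sums was -0.97, beside -0.98 for the median gene. Of these markers Pcna was higher with PladB, with 150 and 145 TPM against 134 and 132, and the others were lower. The summed fibroblast markers stayed between 2281 and 2425. Among them Col1a2 and Thy1 were higher with PladB, while Pdgfrb fell from 227 and 207 TPM to 44.5 and 43.6. The part of dividing cells in the change of the 10 genes was not tested. Of the 22 other family and partner genes 18 were called lower (73.5% of all genes) and 2 higher (15.8%) as deposited. Their median was -0.67, against -0.98 over all genes. Khsrp, a KH domain splicing and decay factor, showed -2.56 log2 and Tnpo1 -2.23, whereas Hnrnpa0 showed 0.47 and Pcbp1 0.42.

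Inclusion of an exon was measured as percent spliced in (PSI), the share of transcripts with the exon, estimated from junction reads on a scale from 0 to 1. Every one of the 82 hnRNP exons had at least 20 reads in both libraries of some tissue or fibroblast condition. Most were included almost always: 65 had a mean PSI above 0.9 in every such group and 3 below 0.1, which leaves 14 exons with a PSI between 0.1 and 0.9 somewhere. Hnrnph1 had 3 of these, Hnrnpa2b1, Hnrnpd and Hnrnpr had 2 each, Hnrnpa1, Hnrnpab, Hnrnpc, Hnrnph3 and Hnrnpk had 1 each, and Hnrnpa3 had none. The length of 6 of the 14 was a multiple of 3.

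To find which of these exons changed between tissues, the switch score was used, the largest difference in mean PSI between tissues. Of 49 hnRNP events tested, 14 were called with a switch score of at least 0.1 (a quasi-binomial model with limma-moderated dispersions, adjusted p under 0.05), which is 28.6% against 13.4% of all 35134 events. However, the median switch score was 0.0143 over the hnRNP events tested and 0.0239 over all events. The hnRNP events and all events were not matched for read depth, which affects what passes the test. The called events concern 12 exons in 8 genes, all but Hnrnpa3 and Hnrnpk, and 11 of these exons had over 10000 reads in all. Cortex had the highest PSI in 9 of the 12 exons. Among the 10 of them with a PSI in all 7 tissues, cortex was highest in 8 and lowest in 1, whereas it was highest in 29.1% and lowest in 26.6% of 2364 events called over all genes. A pair of overlapping Hnrnpr exons is in these counts, and with the pair counted once cortex was highest in 8 of 11 exons and in 7 of the 9 with a PSI in all 7 tissues. With the replicate number as a block, the calls of the 159-base exon of Hnrnpa1, the 120-base exon of Hnrnpa2b1, the 57-base exon of Hnrnpd and the 127-base exon of Hnrnph1 were lost, with adjusted p of 0.0703, 0.0635, 0.236 and 0.208 by the quasi-binomial model.

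**Figure D2:**
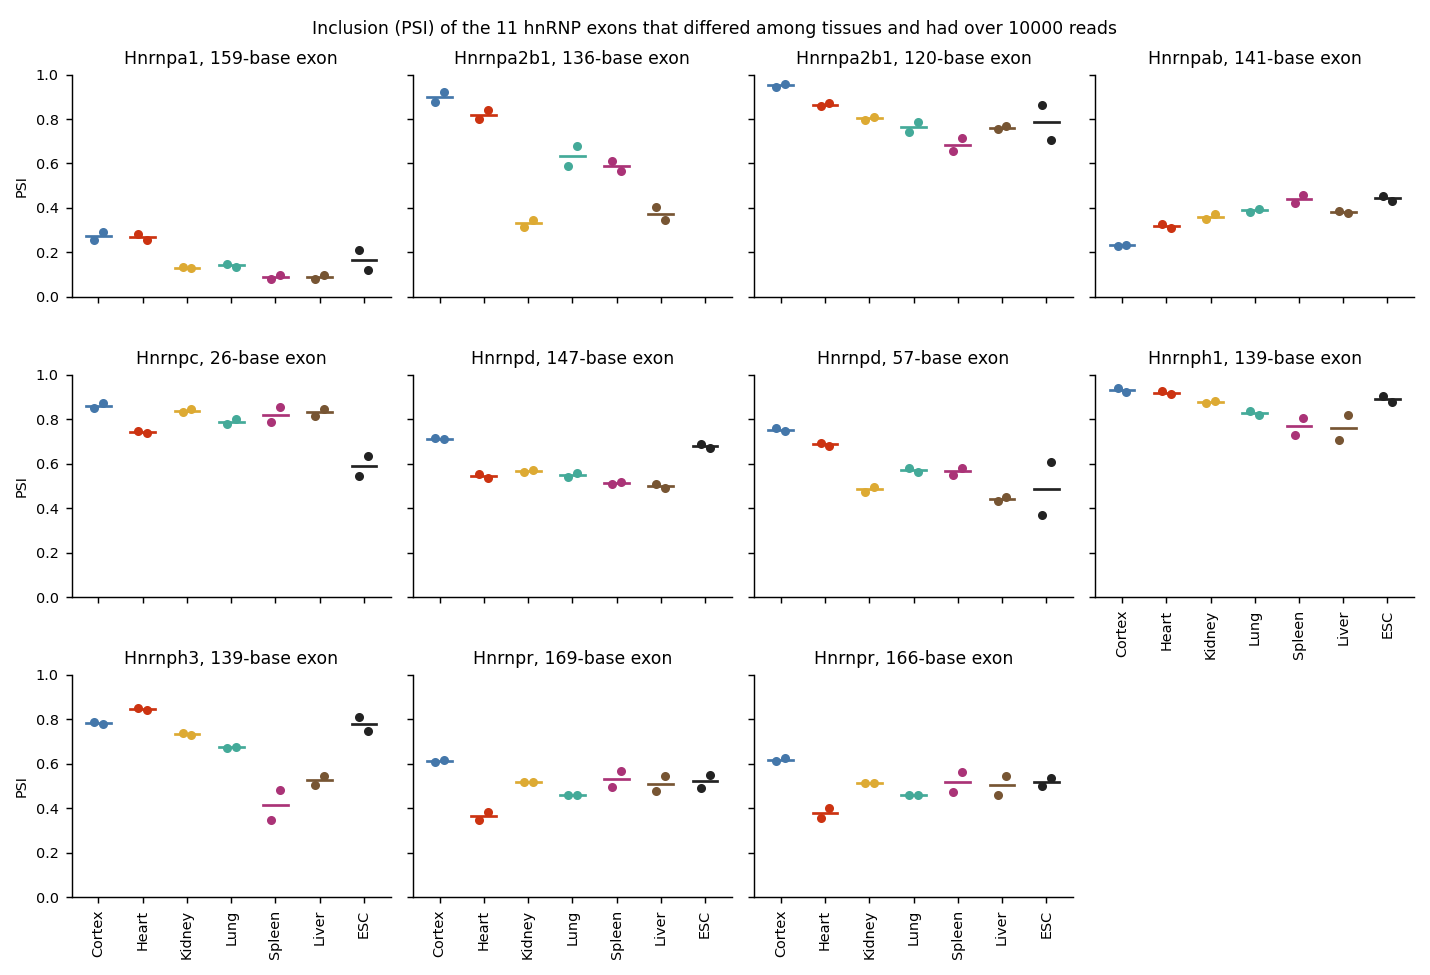
PSI of the 11 hnRNP exons that differed among tissues and had over 10000 reads, with 1 point per library and a bar at the mean of the 2 libraries, on an axis from 0 to 1. Cortex is highest in 9 panels, and the ESC clones of the Hnrnpd 57-base exon lie apart at 0.368 and 0.605. ESC is missing for the Hnrnpa2b1 136-base exon, whose event is not listed for ESC.

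The largest switch with deep coverage was that of a 136-base exon in the 3′ part of Hnrnpa2b1 (chr6:51461920-51462055, mm10). Its PSI was 0.876 and 0.920 in cortex, 0.800 and 0.839 in heart, 0.587 and 0.679 in lung, and 0.610 and 0.565 in spleen. In liver it was 0.405 and 0.344, and in kidney 0.316 and 0.348. Cortex and heart thus lay above all other libraries, with a switch score of 0.566 (adjusted p = 2.36e-12, quasi-binomial model). The 136 bases are not a multiple of 3, and every organ library had at least 1722 reads for this exon, whose event is not listed for ESC.

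A 120-base exon further upstream in Hnrnpa2b1 (chr6:51464428-51464547) varied less, in the same order at its upper end. Its PSI was 0.944 and 0.958 in cortex and 0.857 and 0.870 in heart, and it fell to 0.656 and 0.713 in spleen, while the 2 ESC clones differed with 0.864 and 0.707. The switch score was 0.267 (adjusted p = 6.1e-07, quasi-binomial model).

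In Hnrnpa1 a 159-base exon (chr15:103242922-103243080) was mostly skipped. Its PSI was 0.256 and 0.293 in cortex and 0.284 and 0.258 in heart, which overlapped, and between 0.0787 and 0.149 in kidney, lung, spleen and liver. The ESC clones differed, with 0.212 and 0.119. The switch score was 0.186 (adjusted p = 1.2e-05, quasi-binomial model).

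Hnrnpab and Hnrnpd each carry in-frame alternative exons, whose inclusion separates their protein isoforms. The 141-base exon of Hnrnpab (chr11:51601750-51601890) was the only exon of the 10 covered in all 7 tissues with its lowest PSI in cortex, 0.230 and 0.233. Its PSI rose over heart (0.326 and 0.311) and kidney (0.348 and 0.372) to 0.423 and 0.460 in spleen and 0.455 and 0.433 in ESC, and the switch score was 0.213 (adjusted p = 2.41e-09, quasi-binomial model). Cortex lay below all other libraries.

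In Hnrnpd cortex had the highest PSI of both exons. The 147-base exon (chr5:99963731-99963877) had a PSI of 0.715 and 0.709 in cortex and 0.690 and 0.672 in ESC, and between 0.489 and 0.573 in all other libraries (switch score 0.213, adjusted p = 5.03e-11, quasi-binomial model). The 57-base exon (chr5:99976534-99976590) had a PSI of 0.762 and 0.745 in cortex, 0.694 and 0.679 in heart, 0.473 and 0.494 in kidney, and 0.430 and 0.450 in liver (switch score 0.313, adjusted p = 0.00438). Its ESC clones differed by 0.238, with 0.368 and 0.605, more than any other pair of libraries for the 11 exons with deep coverage. Cortex and ESC stood together for the 147-base exon and apart for the 57-base exon.

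A 26-base exon near the 5′ end of Hnrnpc (chr14:52098015-52098040) was included less in ESC than elsewhere, with 0.545 and 0.633 against 0.738 to 0.873 in the organs. The switch score, from cortex to ESC, was 0.272 (adjusted p = 4.4e-09, quasi-binomial model). Hnrnpr showed a pair of overlapping exons that share their 3′ end and most of their reads and count as a single observation. The 169-base form (chr4:136314087-136314255) had a PSI of 0.610 and 0.618 in cortex and 0.348 and 0.382 in heart, with all other libraries between 0.459 and 0.566 (switch score 0.249, adjusted p = 8.18e-05).

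The paralogs Hnrnph1 and Hnrnph3 each had an alternative exon of 139 bases, not a multiple of 3. In Hnrnph3 (chr10:63018760-63018898) it was included at 0.850 and 0.844 in heart, 0.786 and 0.781 in cortex and 0.810 and 0.746 in ESC, against 0.345 and 0.484 in spleen and 0.503 and 0.547 in liver. The spleen and liver libraries lay below all others, and the switch score was 0.433 (adjusted p = 1.31e-09, quasi-binomial model). In Hnrnph1 (chr11:50381459-50381597) the PSI was 0.938 and 0.923 in cortex and 0.924 and 0.914 in heart, against 0.836 and 0.817 in lung, 0.731 and 0.804 in spleen and 0.707 and 0.818 in liver (switch score 0.168, adjusted p = 8.02e-07). Spleen and liver had the lowest means for both exons, and the liver and lung libraries overlapped in Hnrnph1.

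A further 127-base exon of Hnrnph1 (chr11:50377314-50377440) had the largest switch score, 0.796, but only 854 reads in all. Its PSI was 0.958 and 1 in lung, between 0.106 and 0.512 in the other tissues with enough reads, and 0.857 and 0.120 in the 2 liver libraries, which were under 20 reads. With at least 50 reads required, its switch score was 0.164 (adjusted p = 0.752) and the call was lost, and it was also lost without lung library 1 (adjusted p = 0.201).

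The last exons with a PSI between 0.1 and 0.9 varied little. The 50-base exon of Hnrnph1 (chr11:50385141-50385190) had a PSI from 0.768 in kidney to 0.895 in heart, and its switch score of 0.0971 passed 0.1 in 4 of the fits that left out a library, with values from 0.105 to 0.113. The 54-base exon of Hnrnpk (chr13:58402064-58402117) had a PSI between 0.0774 and 0.174 in all tissues. Neither was called among tissues, although both had an adjusted p under 0.05.

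The spread between libraries differed between tissues. Over the 11 exons with deep coverage, the median gap between the 2 libraries was between 0.00918 and 0.0155 in cortex, heart, kidney and lung, 0.0343 in liver, 0.0572 in spleen and 0.0614 in ESC, where 10 of the exons had a value. Differences that involve the latter groups therefore rest on wider spreads.

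With PladB, the median PSI difference of all 21472 events tested was -0.0147, and that of the 63 hnRNP events was -0.0078. Exon inclusion fell in 2 of the 63 events, or 3.17%, against 18.8% of all events called lower. No hnRNP event was called higher, against 0.466% of all events. In either direction 42 had an unadjusted p under 0.05 by the quasi-binomial model, 2 of them with a difference of at least 0.1, both lower, and limma on log2 odds likewise called 2 lower and 0 higher.

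The larger of both changes was that of the 50-base exon of Hnrnph1, which varied little among tissues. Its PSI was 0.890 in both DMSO libraries and 0.533 and 0.482 with PladB, a difference of -0.383 (SE 0.025, adjusted p = 0.000405, quasi-binomial model). The values with PladB lay below those of all tissues. The 136-base exon of Hnrnpa2b1, which had the largest switch between tissues with deep coverage, was included at 0.305 and 0.286 with DMSO and at 0.115 and 0.140 with PladB, a difference of -0.167 (SE 0.016, adjusted p = 0.00131). Without either PladB library no event of any gene was called, and the differences were then -0.41 and -0.36 for Hnrnph1 and -0.15 and -0.18 for Hnrnpa2b1, with adjusted p of 0.194 and 0.213.

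**Figure D3:**
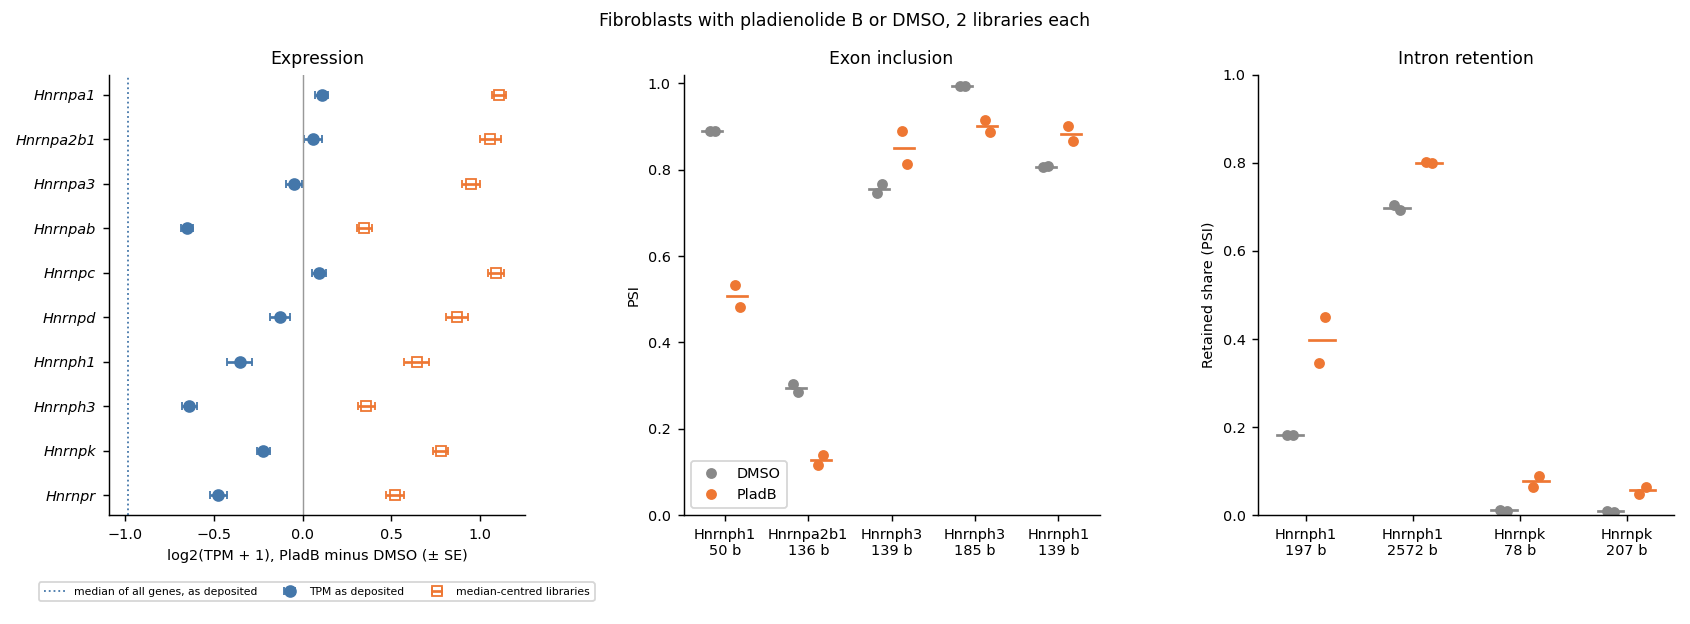
Left, difference in log2(TPM + 1) between PladB and DMSO with its SE for the 10 genes, as deposited (filled) and with median-centred libraries (open), where 7 genes change sign; the dotted line marks the median of all genes, -0.98. Middle and right, PSI of 5 exons and retained share of 4 introns, with 1 point per library and a bar at the mean, where the Hnrnph1 50-base exon falls from 0.890 to between 0.482 and 0.533.

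Other exons moved by less than 0.1 and were not called. The 139-base exons of both H genes stood higher with PladB: in Hnrnph3 0.889 and 0.813 against 0.747 and 0.766 (difference 0.094, SE 0.039, adjusted p = 0.057), and in Hnrnph1 0.901 and 0.866 against 0.805 and 0.807 (difference 0.077, SE 0.017, adjusted p = 0.00888). The 185-base exon of Hnrnph3 (chr10:63018041-63018225) stood lower, with 0.915 and 0.888 against 0.993 in both DMSO libraries (difference -0.091, SE 0.014, adjusted p = 0.0037). In Hnrnpk, a 44-base and a 72-base exon differed by -0.044 and -0.042.

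Among retained introns 4 hnRNP events were tested, and 2 of these were called higher with PladB, against 38% of all 1662 events. Both lie in Hnrnph1. The 197-base intron at chr11:50379624-50379820 was retained at 0.182 in both DMSO libraries and at 0.347 and 0.451 with PladB, a difference of 0.217 (SE 0.052, adjusted p = 2.4e-06, quasi-binomial model). The interval at chr11:50379965-50382536 rose from 0.704 and 0.693 to 0.801 and 0.798, a difference of 0.102 (SE 0.0058, adjusted p = 0.000473), and fell short of 0.1 without DMSO library 2 (0.0961). The conditions did not overlap in either event.

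The latter interval holds the 139-base exon of Hnrnph1, and its spliced reads are the same reads that skip that exon. They numbered 977 and 1003 with DMSO and 282 and 440 with PladB, and the 7780 and 8093 reads with DMSO, or 4918 and 5465 with PladB, that join the exon to its neighbours do not enter the retained share. This retained share is thus not a measure independent of the exon. In Hnrnpk the 78-base intron at chr13:58393775-58393852 was retained at 0.0116 and 0.0105 with DMSO and at 0.0649 and 0.0898 with PladB, and the 207-base intron at chr13:58393869-58394075 at 0.00965 and 0.00852 against 0.0483 and 0.0654. Both stood higher in every PladB library, by less than 0.1.

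To find differences in cis between the alleles, PSI was computed from the reads assigned to each allele, and the SPRET/EiJ value was subtracted from the C57BL/6J value. Between 0 and 4 hnRNP events were called per group, of 14 to 47 tested. In cortex 1 of 17 was called (5.88%, against 9.19% of all events) and in spleen 1 of 21 (4.76% against 6.1%). In ESC it was 1 of 25 (4% against 1.26%), with DMSO 2 of 26 (7.69% against 8.04%) and with PladB 4 of 47 (8.51% against 7.76%). In heart (0 of 15, 6.97% of all events), kidney (0 of 18, 8.59%), lung (0 of 17, 7.73%) and liver (0 of 14, 6.18%) none was called by the quasi-binomial model or by limma on log2 odds, and the counts at an unadjusted p under 0.05 were 0, 1, 0 and 1. With the library as a block, since both alleles come from the same library, no event of any gene was called in any group, and the adjusted p of the called exons of Hnrnpc, Hnrnpa1 and Hnrnph3 lay between 0.383 and 0.534. The block leaves few degrees of freedom with 2 libraries. As it called nothing among all events, this fit cannot tell these exons from any other event.

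The 26-base exon of Hnrnpc was called in 5 groups, with the SPRET/EiJ allele higher in each. With DMSO the C57BL/6J allele had a PSI of 0.226 and 0.135 and the SPRET/EiJ allele 0.805 and 0.785, a difference of -0.615 (adjusted p = 0.00232, quasi-binomial model). The differences were -0.669 in cortex, -0.746 in spleen, -0.627 in ESC and -0.630 with PladB, with adjusted p between 2.75e-07 and 0.00883, and the alleles did not overlap in any library of these groups. However, the allele-assigned reads, between 4.67 and 38.1% of all reads of this exon in these groups, did not represent the whole. Both alleles together gave a PSI of 0.332 and 0.221 with DMSO, where all reads gave 0.690 and 0.686, and 0.356 and 0.322 in cortex, where all reads gave 0.848 and 0.873.

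**Figure D4:**
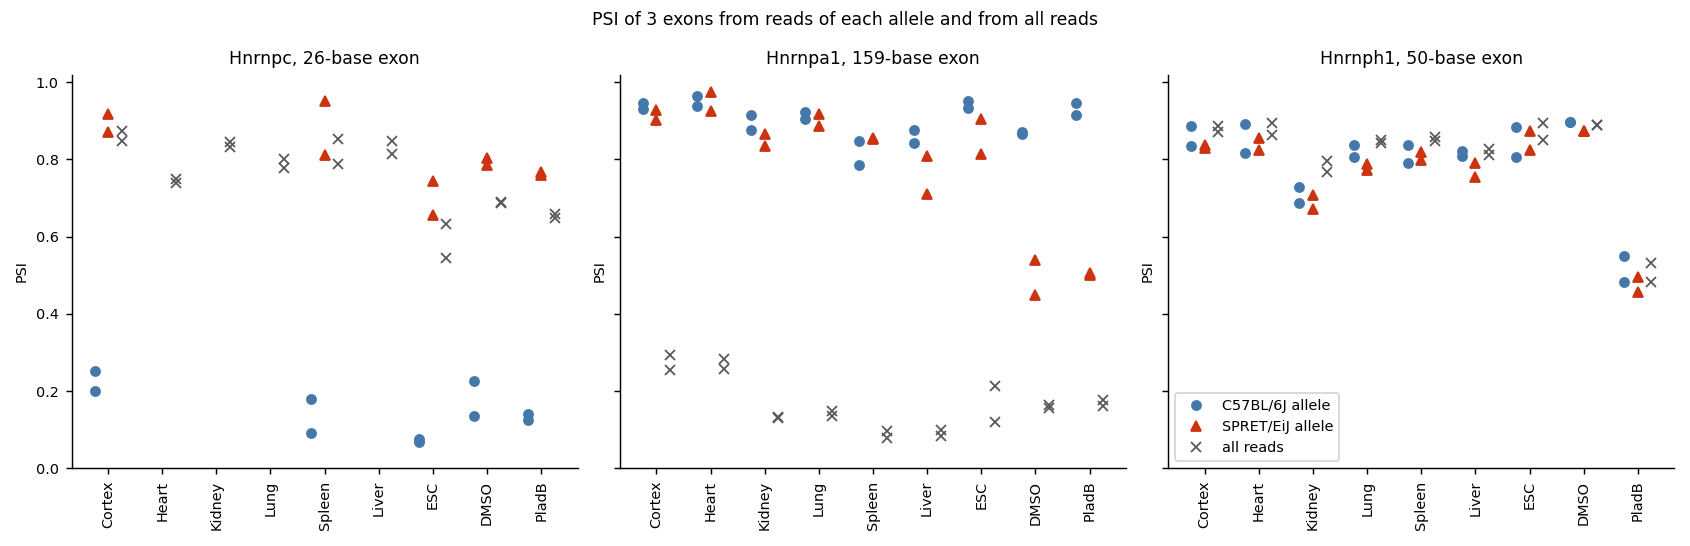
PSI of 3 exons from reads of the C57BL/6J allele (circles), of the SPRET/EiJ allele (triangles) and from all reads (crosses), with 1 point per library for each tissue and fibroblast condition with at least 20 reads per allele. All reads of the Hnrnpc 26-base exon in cortex lie at 0.848 and 0.873, far from the C57BL/6J allele, which reaches 0.251 there, while the Hnrnph1 50-base exon shows similar values for all 3 sets of reads.

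The 159-base exon of Hnrnpa1 was called in fibroblasts, with the C57BL/6J allele higher. Its PSI was 0.870 and 0.866 on that allele and 0.449 and 0.538 on the other with DMSO, a difference of 0.374 (adjusted p = 0.00148, quasi-binomial model), and 0.946 and 0.916 against 0.501 and 0.507 with PladB, a difference of 0.427. In the organs and ESC no allelic difference was called for this exon, with 0.947 and 0.930 against 0.929 and 0.903 in cortex. Here too the allelic reads departed from all reads, which gave 0.155 and 0.164 with DMSO and 0.256 and 0.293 in cortex.

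With PladB the neighbouring 156-base exon of Hnrnpa1 (chr15:103243625-103243780) had a PSI of 0.905 and 0.837 on the C57BL/6J allele and 0.983 and 0.967 on the SPRET/EiJ allele, a difference of -0.104 (adjusted p = 0.00502, quasi-binomial model). The 185-base exon of Hnrnph3 was called with PladB, with 1 and 0.783 against 0.344 and 0.460, a difference of 0.490 on between 39 and 74 reads per allele and library. Its allelic reads together gave 0.592 and 0.644, where all reads gave 0.915 and 0.888, and the call was lost with the larger of both dispersion estimates (adjusted p = 0.073).

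The study kept for its allelic analyses only events whose PSI agreed between allelic and all reads, by a limit on the difference and a further condition on the FDR of a test. The condition on the FDR was not applied here. With a limit of 0.1 on the difference alone, between 11 and 40 of the hnRNP events tested per group remained, 12 of 17 in cortex and 19 of 26 with DMSO, and of the calls above only the 156-base exon of Hnrnpa1 with PladB was kept. The calls of Hnrnpc, of the 159-base exon of Hnrnpa1 and of Hnrnph3 thus rest on reads that do not represent the exon's overall inclusion. What these reads are was not tested.

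The 50-base exon of Hnrnph1 is a contrast to these, since its allelic reads gave a PSI within 0.1 of that from all reads in every group. Its alleles differed by -0.0042 to 0.043 over the 9 groups, none of which was called. With PladB the PSI was 0.549 and 0.481 on the C57BL/6J allele and 0.495 and 0.456 on the SPRET/EiJ allele, and with DMSO it was 0.897 and 0.896 against 0.874 on the other allele in both libraries. Inclusion was thus lower with PladB on both alleles.

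To test whether PladB changed the allelic difference itself, an interaction of allele and treatment was fitted. None of 32 hnRNP events was called, as against 0.155% of all 9677 events, and 2 had an unadjusted p under 0.05. These were the 159-base exon of Hnrnpa1 (change of the difference 0.053, SE 0.047, adjusted p = 0.406, quasi-binomial model) and a 63-base exon of Hnrnpa2b1 (-0.011, SE 0.0089, adjusted p = 0.548). For the 50-base exon of Hnrnph1 the change was 0.017 (SE 0.039, adjusted p = 0.933).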

How the data were processed

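Expression and splicing of 10 hnRNP genes were analysed in 14 tissue libraries and 4 fibroblast libraries. The authors aligned reads with HISAT2 (version 2.0.1) to mm10, the genome of C57BL/6J, and to a version of it with SPRET/EiJ variants, and assigned each read to the genome with fewer edits. The authors deposited TPM values, made from featureCounts gene counts in which reads over several genes were shared out, and normalised within each library. The deposited splicing tables, written by rMATS, hold junction counts that are not normalised, with the 2 libraries of a group in a list whose position was taken as the replicate. Their effective lengths of both forms are a score the authors deposited, with up to 75 junction positions for the tissues and 149 for the fibroblasts. Columns of the authors' own comparisons (p-values, FDR, PSI and PSI differences) were not used. Gene coordinates come from RefSeq GRCm38.p6.

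PSI was recomputed as inclusion counts over effective length, relative to both forms. SE and RI events on autosomes were tested with at least 20 reads per library (per allele for alleles) and at least 10 reads of the rarer form. A quasi-binomial model was fitted per event, with Pearson dispersions moderated by limma 3.58.1 (R 4.3.3) toward a trend with depth and kept at 1 or above, and p-values were adjusted over all events (Benjamini-Hochberg). Events were called at an adjusted p under 0.05 and a difference or switch score of at least 0.1, and the interaction at the adjusted p alone. TPM were tested with limma on log2(TPM + 1), after a filter of at least 1 TPM in 2 libraries. Both tests were checked on simulated data. With 2 libraries per group, the precision rests on the spread shared across genes or events.

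The members, the gene lists and the tests were chosen with earlier results of these data known. All 10 members were named. Exons were named if their mean PSI lay between 0.1 and 0.9 in some group (at most 4 per gene) or if they were called for alleles or PladB, with the event of most reads standing for an exon. Of the 22 other genes at most 4 per comparison were named, and the 5 genes of most similar profile. Figures were drawn with matplotlib 3.10.9. Alternatives concerned the pseudocount, filters, scaling, dispersion, blocks and left-out libraries. Alleles of a library are paired by construction (r of their deviations between 0.0392 and 0.504).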

Additional observations from a re-analysis of the deposited data

Results flagged for a closer look

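The allelic difference of the 57-base exon of Hnrnpd pointed in opposite directions in 2 tissues, in both libraries of each. In cortex the C57BL/6J allele was included more, by 0.135 and 0.192, with a mean of 0.164 over 272 allelic reads. In lung it was included less, by -0.272 and -0.109, with a mean of -0.19 over 227 allelic reads. Neither difference was called, and the difference between the tissues was not tested.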

How the results depend on the processing

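With each library centred on its median gene, 3 hnRNP genes were higher and 3 lower in cortex, 0 were higher and 4 lower in lung, and 6 were lower in liver. With PladB the same centring gave 10 higher and 0 lower, and the log2 differences turned to 0.95 for Hnrnpa3, 0.35 for Hnrnpab, 0.87 for Hnrnpd, 0.64 for Hnrnph1, 0.36 for Hnrnph3, 0.78 for Hnrnpk and 0.52 for Hnrnpr. In alternatives chosen after seeing the data, 9 genes were higher in lung without the 2 ESC libraries, and 0 were higher and 3 lower there without the 2 liver libraries. The shares of all genes called in lung with libraries left out were not determined. When 1 library was left out, between 3 and 5 genes were higher in lung, 3 without either lung library, and between 0 and 1 lower, 1 without ESC library 1. With PladB, 0 genes were higher without the filter on low TPM, and between 0 and 3 when 1 library was left out, with 3 without PladB library 2. Without PladB library 1 the difference of Hnrnpa2b1 was -0.0066, and over the libraries left out it reached 0.13.

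The lower exons with PladB numbered between 0 and 2 and the retained introns between 1 and 2 when 1 library was left out, with 0 exons without either PladB library and 1 intron without DMSO library 2. The change of the allelic difference of Hnrnpc turned from -0.0156 to 0.0203 without DMSO library 1, with values down to -0.0515 without the others. Of 980 values of single genes in the tissues with 1 library left out, 941 kept direction and side of the threshold, as did 456 of 474 values of named genes, exons and introns. A pseudocount of 0.1 changed none of the 20 values with PladB and none of the 70 in tissues.

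For alleles with at least 50 reads, 0 of 13 events were lower in cortex (3.37% of all events) and 0 of 19 in spleen (2.55%). With PladB 1 of 46 was higher (3.74%). Without the filter on the rarer form 3 of 35 were lower in spleen and 4 of 47 in ESC (1.27 and 0.471% of all events), and with limma on log2 odds, added later, 3 of 21 and 2 of 25 (2.73 and 0.722%). With the larger of both dispersions, also added later, 1 of 47 was higher with PladB (2.8% of all events). In a further setting the PSI of allelic reads had to lie within 0.1 of all reads. There 0 were lower in cortex (3.69% of all events), 0 in spleen (2.51%) and 0 in ESC (0.552%). Under this limit 0 were higher (4.23%) and 0 lower (3.66%) with DMSO, and 0 higher (3.78%) and 1 lower (3.59%) with PladB. The cause was not tested in any of these.

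No label ties a replicate number to an animal. Deviations of same-numbered libraries of different groups correlated over 0.1 in 6 of 22 pairs for TPM (-0.0656 to 0.324), all between organs, and in none for PSI (-0.0778 to 0.0551), so the numbers were not taken as pairs. However, the 10 TPM correlations among cortex, heart, kidney, lung and spleen were all above 0, as were 8 of the 10 for PSI (-0.0173 to 0.0323). The main tests among tissues thus leave out a possible pairing by animal. With the number as a block, 0 genes were higher and 0 exons lower with PladB, where 0 of 21472 events over all genes were called (members' adjusted p 0.207 for Hnrnph1 and Hnrnpa2b1), and 2 introns were higher. With the library as a block for alleles, 0 were lower in cortex, 0 in spleen and 0 in ESC, 0 higher and 0 lower with DMSO, and 0 higher and 0 lower with PladB. The blocked fits of alleles and of exons with PladB called no event of any gene, so they cannot decide on single exons. Among tissues the block took the call of 4 exons, of Hnrnpa1, Hnrnpa2b1, Hnrnpd and Hnrnph1. The planned test with edgeR was not run, and limma on log2 odds was run in its place. Between 14 and 47 of the 126 events could be tested for alleles per group.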

Other observations

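The TPM of the hnRNP genes differed between the 2 ESC libraries, 1 per clone, so clone, library and scaling cannot be told apart. Clone 2 was higher than clone 1 in 9 of the 10 genes, by a ratio of TPM from 1.05 for Hnrnpr to 1.49 for Hnrnpa2b1, and lower in Hnrnph3, with a ratio of 0.572. The share of all genes higher in clone 2 was not determined. The summed markers of dividing cells were 655 in the lower and 1099 in the higher clone.

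In DMSO fibroblasts Hnrnpab was the second most abundant of the 10 genes, with 548 TPM ± 5.7 (SD, n = 2), and the PSI of its 141-base exon was 0.530 and 0.527 there, above every tissue library. Hnrnpd stood at 52.2 TPM ± 0.148 (SD, n = 2), below its level in cortex, lung, spleen and ESC. The fibroblasts were sequenced with longer reads, so these values are set beside the tissues without a test.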
